A study of Mus musculus with 79 samples.

Results

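Genes encoding lipid droplet proteins were followed in RNA-seq libraries from mouse bone and fat. The 10 members were *Plin1*, *Plin2*, *Plin3*, *Plin4* and *Plin5* (the perilipins), *Cidec*, *Fitm2*, *Sncg*, *Plaat3* and *Dbi*. They were taken by an exact match of the gene symbol, which found 10 of the 39063 genes with a numeric gene ID, and all 10 passed the filter on low values that left 14873 genes for testing. *Plin1*, *Plin4*, *Sncg*, *Plaat3* and *Dbi* were singled out by the study itself in these same libraries, so their direction with leptin here is no independent evidence.

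The 79 libraries came from 51 mice, aged 4 to 5 months by the series description (the study's own text allows a somewhat higher upper age), on a mixed SJLxC57BL6 background: caudal vertebrae (CV, rich in marrow adipocytes), and from the same females lumbar vertebrae (LV, the fat-free control) and inguinal white adipose tissue (iWAT). The design asked which genes change as leptin given to the brain drains stable marrow fat, whether the change needs ATGL, and whether insulin reverses it. Mice received PBS or 100 ng/hr of leptin into a brain ventricle (intracerebroventricular, ICV) for 9 days. WT mice were BMAd-Pnpla2+/+ littermates of BMAd-Pnpla2-/- mice (cKO), in which *Pnpla2*, the gene of the triglyceride lipase ATGL, is deleted in bone marrow adipocytes alone, so whole vertebrae still hold *Pnpla2* from other cells. CV came from WT females (5 PBS, 5 leptin), WT males (5 PBS, 8 leptin), cKO females (4 and 4) and cKO males (5 and 4), and from WT males that also carried subcutaneous insulin with PBS (5) or leptin (6). LV came from the WT females (5 and 5) and cKO females (4 and 4), and iWAT from the WT females (5 and 5).

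Library totals ran from 16100377 to 19364106 counts in CV, 28717516 to 29757254 in LV and 17638318 to 19100698 in iWAT. Levels are given as TPM, read counts corrected for transcript length and library total, so levels of different genes may be compared. The whole-tissue level of *Pnpla2* in CV with PBS was 131 to 256 TPM in cKO against 217 to 288 TPM in WT females, and 135 to 209 against 191 to 294 TPM in males, so the genotypes overlapped. In whole tissue, fewer adipocytes and less RNA per adipocyte cannot be told apart. CV also held other cells: 8 skeletal muscle markers summed to 18460.5 to 41115 TPM in WT females with PBS, against 13234 to 17929 TPM for 8 adipocyte markers. The adipocyte sum was 483 to 809.9 TPM in LV and 71310.2 to 93086 TPM in iWAT of the same mice.

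Neutral lipid is stored in droplets bounded by a phospholipid monolayer, and the proteins on that surface decide when lipases reach the core. PLIN1 is the adipocyte coat protein that withholds the ATGL co-activator ABHD5 until the cell is stimulated to break down fat. PLIN2 and PLIN3 are found in most cells, PLIN4 coats droplets in white adipocytes, and PLIN5 is best known from tissues that burn fat. CIDEC promotes the fusion of small droplets into a large one, FITM2 acts in the endoplasmic reticulum where droplets form, and gamma-synuclein (SNCG) is a small protein of neurons and adipocytes. PLAAT3 is the adipose phospholipase A and DBI binds acyl-CoA esters in the cytosol.

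On the GRCm38.p6 build, *Plin4* (chromosome 17, 56100587 to 56109948) and *Plin5* (56111597 to 56117606) lie in tandem on the minus strand, 1648 bases apart, and *Plin3* (56278962 to 56290511) follows on the same strand 161355 bases away. *Plin1* is at chromosome 7, 79721164 to 79732904, *Plin2* at chromosome 4, 86626910 to 86670217, and *Sncg* at chromosome 14, 34370274 to 34374669. *Cidec* is at chromosome 6, 113424634 to 113435760, *Fitm2* at chromosome 2, 163468703 to 163472629, *Plaat3* at chromosome 19, 7557459 to 7588545, and *Dbi* at chromosome 1, 120113280 to 120121096. *Plin4* overlaps Hdgfl2, *Fitm2* overlaps 2310001K24Rik and *Dbi* overlaps 3110009E18Rik, each on the opposite strand, while *Plin2* and *Cidec* overlap the gene models Gm12551 and Gm52871. The sources used here do not say that counting used strand, so reads of these overlapping pairs may be shared.

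The 250 bases before an annotated transcript start, taken from RefSeq on GRCm38.p6, are shown for *Plin1*, *Plin4* and *Sncg*, which were lower with leptin in CV and iWAT, and for *Plin2* and *Plin5*, which were lower in iWAT and did not pass the test in CV. Other transcripts of *Plin1*, *Plin2*, *Plin4* and *Plin5* start inside these windows. All 5 are read on the minus strand: *Plin1* at chr7:79732777-79733026, *Plin4* at chr17:56109783-56110032, *Sncg* at chr14:34374670-34374919, *Plin2* at chr4:86670060-86670309 and *Plin5* at chr17:56117549-56117798. Capitals mark matches, on either strand, to a promoter box spelled TATAAA, a nuclear factor box with the letters CCAAT, a GC-rich box spelled GGGCGG, a half-site of the PPAR and RXR receptors spelled AGGTCA, or an E-box spelled CACGTG.
Plin1: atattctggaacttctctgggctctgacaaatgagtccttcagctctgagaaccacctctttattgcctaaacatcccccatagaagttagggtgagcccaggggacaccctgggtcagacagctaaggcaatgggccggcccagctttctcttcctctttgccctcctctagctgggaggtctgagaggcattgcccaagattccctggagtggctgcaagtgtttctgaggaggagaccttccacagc
Plin4: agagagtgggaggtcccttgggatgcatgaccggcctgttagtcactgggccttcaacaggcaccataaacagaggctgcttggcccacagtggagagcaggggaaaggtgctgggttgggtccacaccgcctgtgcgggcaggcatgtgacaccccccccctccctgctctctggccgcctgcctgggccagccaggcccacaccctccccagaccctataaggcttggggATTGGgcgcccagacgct
Sncg: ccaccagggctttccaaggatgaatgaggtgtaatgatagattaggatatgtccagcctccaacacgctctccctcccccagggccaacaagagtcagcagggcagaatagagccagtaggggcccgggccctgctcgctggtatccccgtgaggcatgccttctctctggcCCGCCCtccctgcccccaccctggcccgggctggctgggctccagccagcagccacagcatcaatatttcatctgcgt
Plin2: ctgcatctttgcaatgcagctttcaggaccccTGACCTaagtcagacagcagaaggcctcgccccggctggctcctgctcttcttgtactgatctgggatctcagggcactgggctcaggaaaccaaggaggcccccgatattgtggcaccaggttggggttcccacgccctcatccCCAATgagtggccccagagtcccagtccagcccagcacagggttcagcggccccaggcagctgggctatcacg
Plin5: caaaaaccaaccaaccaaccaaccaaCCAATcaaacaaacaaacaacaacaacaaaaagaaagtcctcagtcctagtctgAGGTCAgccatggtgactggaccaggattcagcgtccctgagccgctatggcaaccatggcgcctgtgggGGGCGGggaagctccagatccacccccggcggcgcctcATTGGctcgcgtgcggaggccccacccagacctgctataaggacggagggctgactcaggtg

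Among 32851 promoter windows of this length, 14.02% held AGGTCA, 33.8% CCAAT, 32.7% GGGCGG, 12.4% TATAAA and 6.02% CACGTG. The *Plin1* window held none of the 5 motifs, *Plin4* held 1 CCAAT match 18 bases before the start, and *Sncg* held 1 GGGCGG match. AGGTCA matched once in *Plin2*, 218 bases before the start, and once in *Plin5*, 170 bases before it. No window of any of the 10 genes held TATAAA or CACGTG. These are matches of letters in a short window, and no more.

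With ICV PBS the members differed widely in level. In WT female CV the order from high to low was *Dbi* at 835 ± 174 TPM (SD, n = 5), *Plin1* at 240.3 ± 65.6 TPM (SD, n = 5), *Cidec* at 154 ± 40.3 TPM (SD, n = 5), *Sncg* at 140.3 ± 32.9 TPM (SD, n = 5), *Plaat3* at 139 ± 23.5 TPM (SD, n = 5), *Plin4* at 118 ± 28.1 TPM (SD, n = 5), *Plin2* at 98.9 ± 11.1 TPM (SD, n = 5), *Plin3* at 58.1 ± 2.65 TPM (SD, n = 5), *Fitm2* at 32.8 ± 3.48 TPM (SD, n = 5) and *Plin5* at 1.89 ± 0.565 TPM (SD, n = 5). *Cidec*, *Sncg*, *Plaat3*, *Plin4* and *Plin2* overlapped with their neighbours in that order, while *Dbi* above them and *Fitm2* and *Plin5* below them stood apart. *Plin5* rested on 12 to 73 counts per CV library, the thinnest depth of the 10.

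Tissue comparisons were made in WT females with PBS, whose CV libraries serve in both, so the 2 comparisons are not independent. Against LV, 7 of 10 members were higher in CV, where 66.6% of all tested genes were called in either direction at an adjusted p below 0.05 and a log2 fold change of at least 0.5 in size (quasi-likelihood test of edgeR, with adjustment by Benjamini-Hochberg over all genes tested). *Plin1* read 251, 326, 261, 146 and 218 TPM in the 5 CV libraries and 0.420, 1.18, 0.520, 0.910 and 1.88 TPM in LV. Its log2 fold change was 6.82 (SE 0.375, adjusted p = 2.70e-09), the largest of the members, and the tissues did not overlap. *Plin4*, the other white adipocyte perilipin, followed at 5.37 (SE 0.247, adjusted p = 5.32e-10), then *Cidec* at 4.95 (SE 0.444, adjusted p = 3.22e-07) and *Fitm2* at 2.94 (SE 0.147, adjusted p = 1.17e-09).

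*Sncg*, *Dbi* and *Plaat3* were higher in CV by less, with log2 fold changes of 1.80 (SE 0.553, adjusted p = 0.00917), 1.05 (SE 0.147, adjusted p = 2.28e-05) and 0.86 (SE 0.131, adjusted p = 4.64e-05). LV levels of *Sncg* were scattered, at 2.93, 4.38, 25.8, 39.1 and 15.7 TPM, so 3 of the 5 LV libraries held several times more than the other 2. The ubiquitous *Plin2* and *Plin3* and the low *Plin5* were not called, at -0.07 (SE 0.1003, adjusted p = 0.499), 0.00 (SE 0.0515, adjusted p = 0.993) and 0.17 (SE 0.263, adjusted p = 0.547). These last 3 depend on the scaling: on log2(TPM + 1) with limma the median of all genes moved by 0.87 and all 10 members were called higher in CV, *Plin2* at 1.04, *Plin3* at 1.09 and *Plin5* at 0.66. With that scaling 9854 of 14873 tested genes were called higher in CV and 1566 lower, against 5184 and 4714 by edgeR. In LV, 5 erythroid markers alone summed to 177538 to 233918 TPM, against 1994 to 5901 TPM in CV.

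Against iWAT, 9 of 10 members were lower in CV, beside 50.5% of all tested genes called, 3637 lower and 3870 higher. *Sncg* fell furthest, from 1377, 1279.9, 967, 1297 and 1280.4 TPM in iWAT to 179.7, 157, 151, 98.5 and 115 TPM in CV, a log2 fold change of -3.30 (SE 0.198, adjusted p = 5.25e-08). *Plin5* was at -3.26 (SE 0.212, adjusted p = 9.60e-08), *Cidec* at -2.98 (SE 0.281, adjusted p = 2.01e-06), *Dbi* at -2.90 (SE 0.182, adjusted p = 7.60e-08) and *Plin2* at -2.82 (SE 0.218, adjusted p = 4.11e-07). *Plin1*, *Plin4*, *Plaat3* and *Fitm2* differed by less, with log2 fold changes of -2.21, -1.82, -1.79 and -1.58. *Plin3* was at -0.34 (SE 0.0644, adjusted p = 0.000513), under the fold threshold. All 8 adipocyte markers were also lower in CV, with sums of 13234 to 17929 TPM against 71310.2 to 93086 TPM.

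**Figure D1:**
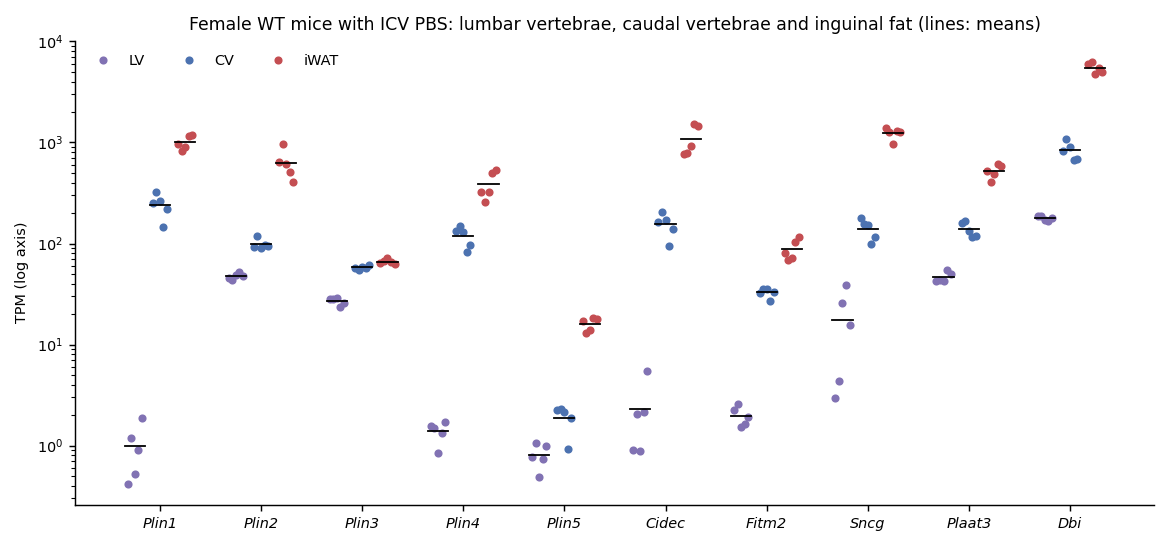
TPM on a log axis of each member in female WT mice with PBS, 1 point per library (5 per tissue) and a line at each mean. *Plin1* and *Plin4* sit at most at 1.88 TPM in LV and at 81.6 TPM or more in every CV library, and *Plin3* spans the narrowest range of the 10 across the tissues.

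The mix of perilipins differed by tissue. Of the summed TPM of the 5 perilipins, *Plin1* made up 45.8% ± 4.60 (SD, n = 5) in WT female CV and 47.7% ± 5.83 in iWAT with PBS. *Plin2* held 19.5% ± 3.53 in CV, 30.01% ± 10.5 in iWAT and 61.2% ± 3.21 in LV, where *Plin1* held 1.26% ± 0.753. *Plin3* held 34.7% ± 3.24 in LV and 3.16% ± 0.361 in iWAT. *Plin1* thus held the largest share of the 5 in CV and iWAT, and *Plin2* in LV.

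Leptin lowered 5 of the 10 members in WT CV of females, and the same 5 in males: *Plin1*, *Plin4*, *Sncg*, *Plaat3* and *Dbi*. Among all tested genes 5.04% were called in females and 1.75% in males, in either direction. The median log2 fold change of the 10 members was -0.68 in females and -0.61 in males, against -0.01 and 0.00 over all tested genes. No member was called higher in either sex, and *Plin2*, *Plin3*, *Plin5*, *Cidec* and *Fitm2* were called in neither. The 2 comparisons share no library.

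*Plin1*, the lipase-gating coat protein, showed the largest fall in males and the second in females. In WT females its CV levels were 251, 326, 261, 146 and 218 TPM with PBS and 64.7, 136, 79.8, 106 and 81.9 TPM with leptin, a log2 fold change of -1.37 (SE 0.269, adjusted p = 0.0142). In males they were 123, 163.2, 201, 105 and 229 TPM with PBS and 45.6 to 100.1 TPM with a median of 70.4 over the 8 leptin libraries, at -1.23 (SE 0.200, adjusted p = 0.00517). Neither sex had a leptin library inside the PBS range.

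*Plin4*, the other perilipin of white adipocytes, had the largest fall in females. In WT females its CV levels were 134, 149.7, 130.1, 81.6 and 97.1 TPM with PBS and 33.3, 41.0, 59.4, 50.0 and 35.6 TPM with leptin, a log2 fold change of -1.47 (SE 0.203, adjusted p = 0.00347). In males they were 117, 133, 107, 79.6 and 134 TPM with PBS and 42.0 to 67.9 TPM with a median of 54.98 over the 8 leptin libraries, at -1.12 (SE 0.135, adjusted p = 0.00065). The groups were again separate in both sexes, and this was the member with the lowest p-value in each.

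*Sncg* encodes gamma-synuclein. In WT females its CV levels were 179.7, 157, 151, 98.5 and 115 TPM with PBS and 51.2, 45.1, 63.2, 84.9 and 77.5 TPM with leptin, a log2 fold change of -1.21 (SE 0.204, adjusted p = 0.00845). In males they were 107, 151, 147, 72.5 and 126 TPM with PBS and 53.5 to 81.7 TPM with a median of 67.2 over the 8 leptin libraries, at -0.90 (SE 0.144, adjusted p = 0.0041). Females did not overlap, while in males the lowest PBS library lay inside the leptin range.

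*Plaat3* encodes the adipose phospholipase. In WT females its CV levels were 159, 168.5, 133, 116 and 119.8 TPM with PBS and 53.5, 91.5, 76.2, 72.8 and 68.1 TPM with leptin, a log2 fold change of -0.92 (SE 0.179, adjusted p = 0.014). In males they were 128, 138, 159.5, 103 and 146 TPM with PBS and 65.5 to 112 TPM with a median of 75.0 over the 8 leptin libraries, at -0.77 (SE 0.112, adjusted p = 0.00206). The female groups were apart, and in males 1 leptin library exceeded the lowest PBS library.

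*Dbi*, the acyl-CoA binding protein, was the most abundant member in CV. In WT females its CV levels were 821, 1093, 905, 669.8 and 686.7 TPM with PBS and 305, 655, 381, 428 and 449 TPM with leptin, a log2 fold change of -0.97 (SE 0.245, adjusted p = 0.0334). In males they were 762, 782, 1060.4, 499 and 923 TPM with PBS and 408 to 598 TPM with a median of 455 over the 8 leptin libraries, at -0.79 (SE 0.142, adjusted p = 0.00792). In females the highest leptin library lay just under the lowest PBS library, and in males the lowest PBS library lay inside the leptin range. The female call was lost on leaving out PBS replicate 1, 2 or 3 or leptin replicate 1, 3, 4 or 5, with adjusted p-values of 0.0538 to 0.0872 and log2 fold changes of -0.95 to -0.83.

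Among the members that did not pass the test were the broadly expressed coats *Plin2* and *Plin3* and the droplet growth genes *Cidec* and *Fitm2*. *Plin2* stood at 98.9 ± 11.1 TPM (SD, n = 5) with PBS and 90.4 ± 14.4 TPM (SD, n = 5) with leptin in females, a log2 fold change of -0.17 (SE 0.0943, adjusted p = 0.285), and at 0.18 (SE 0.118, adjusted p = 0.457) in males. *Plin3* was at -0.14 (SE 0.0566, adjusted p = 0.149) in females and -0.08 (SE 0.0708, adjusted p = 0.568) in males. *Cidec* varied widely, from 47.4 to 181.8 TPM among female leptin libraries, with log2 fold changes of -0.44 (SE 0.323, adjusted p = 0.426) and -0.45 (SE 0.188, adjusted p = 0.212). For *Fitm2* they were -0.20 (SE 0.117, adjusted p = 0.304) and 0.04 (SE 0.0742, adjusted p = 0.812), and for *Plin5* -0.35 (SE 0.293, adjusted p = 0.494) and 0.05 (SE 0.170, adjusted p = 0.9).

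**Figure D2:**
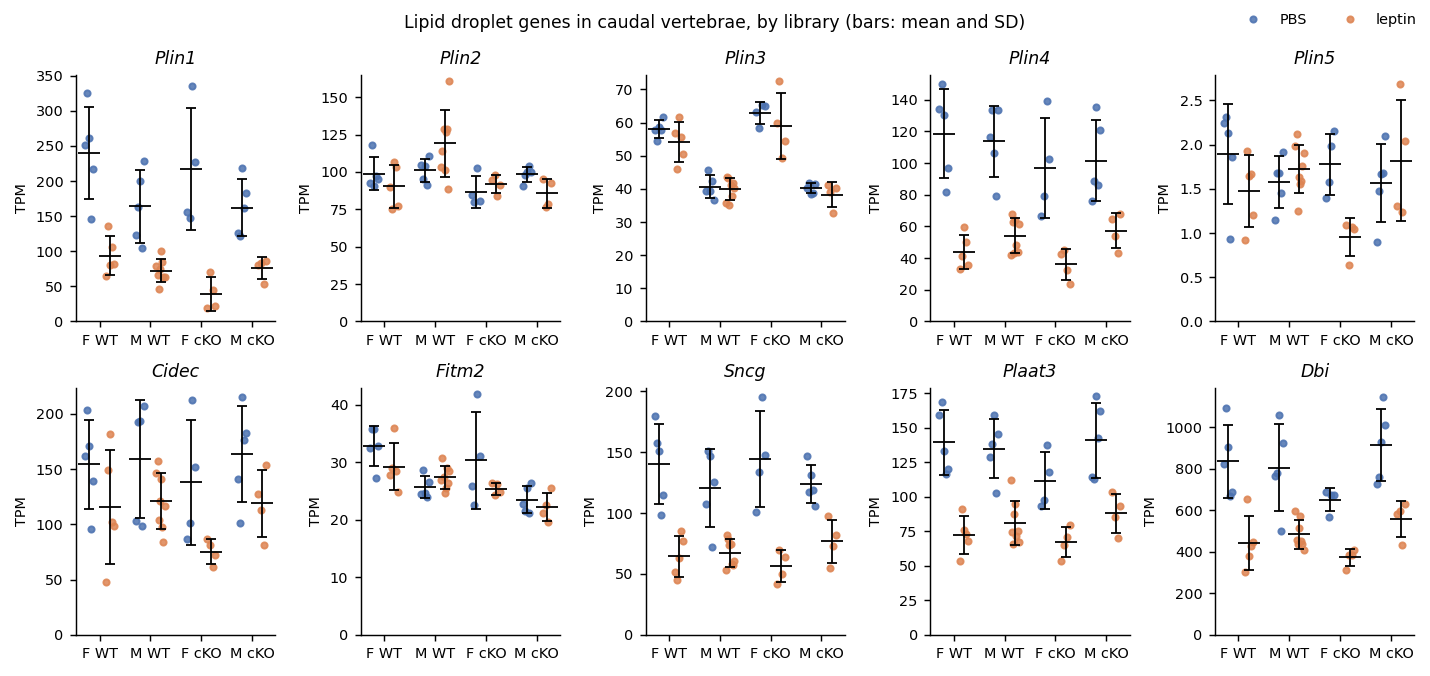
TPM of each member in every CV library of the mice without insulin, by sex (F, M) and genotype, with PBS in blue and leptin in orange; bars give the mean and SD. *Plin1* and *Plin4* have no overlap of PBS and leptin libraries in any of the 4 pairs, while *Plin2*, *Plin3*, *Cidec* and *Fitm2* overlap in all 4.

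Other cells moved with leptin too. Of 8 adipocyte markers 2, *Adipoq* and *Car3*, were lower in each sex, and their sum was 13234 to 17929 TPM with PBS and 7489 to 13390.3 TPM with leptin in females, and 10640.1 to 15822 TPM and 9139 to 12172 TPM in males. Of 5 erythroid markers 3 were higher in each sex and 1, *Slc4a1*, was lower in females, with sums of 1994 to 5901 TPM and 5060.4 to 21527 TPM in females. Skeletal muscle markers summed to 40935 to 49909.9 TPM and 21805 to 42018 TPM in males, where 1 of 8 was lower, and none of 8 was called in females. Of 6 macrophage markers 2 were higher in females and 0 in males, 1 of 5 osteoblast and osteocyte markers was higher in females, and 1 of 3 brown adipocyte markers was higher in males. No neuron or neutrophil marker was called in either sex. Set against the adipocyte sum, *Plin1* went from 1.60% ± 0.286 of it with PBS to 0.862% ± 0.126 with leptin in females (SD, n = 5 each), and *Plin2* from 0.667% ± 0.0523 to 0.869% ± 0.235. *Fabp4* alone made up 40.9% ± 4.19 of that sum with PBS. The part of these cell types in the members' change was not tested.

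Mice carried numbers in separate series, and the differences were recomputed within each on log2(TPM + 1). In WT females *Plin1* differed by -1.55 in the 100s (2 leptin, 3 PBS) and -1.001 in the 600s (3 leptin, 2 PBS), and *Sncg* by -1.73 and -0.507. In WT males *Plin1* differed by -1.16 (5 leptin, 3 PBS) and -1.14 (3 leptin, 2 PBS), and *Sncg* by -0.884 and -0.700. *Plin4*, *Plaat3* and *Dbi* were likewise lower with leptin within each series of each sex, with differences from -1.87 to -0.65. In iWAT the 7 members called lower were negative in both series, *Plin2* unevenly, at -1.37 in the 100s and -0.461 in the 600s. In cKO females the 5 members were negative in the 100s (3 leptin, 2 PBS) and the 5400s (1 and 1), *Plin1* at -1.93 and -3.86. In cKO males they were negative in the 100s (1 leptin, 2 PBS) and the 5400s (1 and 3), *Plaat3* at -0.127 and -0.890, while the other 2 leptin mice were in the 600s, with no PBS mouse of that group.

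In cKO CV, where marrow adipocytes lack ATGL, none of the 10 members was called with leptin by edgeR, beside 0.0269% of all genes in females and 0.188% in males. Without adjustment, 7 members in cKO females and 5 in cKO males had a p below 0.05, beside 1723 and 1436 of the 14873 tested genes. The 5 members that fell in WT had negative log2 fold changes in cKO females: -2.39 (SE 0.406, adjusted p = 0.0969) for *Plin1*, -1.36 (SE 0.218, adjusted p = 0.0878) for *Plin4*, -1.24 (SE 0.224, adjusted p = 0.103) for *Sncg*, -0.72 (SE 0.162, adjusted p = 0.203) for *Plaat3* and -0.68 (SE 0.155, adjusted p = 0.209) for *Dbi*. *Plin1* read 156, 148, 335.6 and 227 TPM with PBS and 18.6, 69.8, 45.1 and 22.2 TPM with leptin, and for each of the 5 genes no cKO female library with leptin reached the PBS range. The same held for *Plin5*, on only 12 to 24 counts with leptin and 27 to 43 with PBS. How many of all tested genes were so apart was not counted, so this separation cannot be set against a background.

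In cKO males the log2 fold changes were -1.08 (SE 0.248, adjusted p = 0.116) for *Plin1*, -0.81 (SE 0.233, adjusted p = 0.219) for *Plin4*, -0.65 (SE 0.133, adjusted p = 0.0892) for *Sncg*, -0.68 (SE 0.187, adjusted p = 0.188) for *Plaat3* and -0.68 (SE 0.207, adjusted p = 0.256) for *Dbi*. *Plin1* read 126, 122, 219, 161.4 and 182.4 TPM with PBS and 80.5, 83.9, 53.7 and 86.8 TPM with leptin. All 5 genes were again without overlap between the groups. How many of all tested genes were so apart was not counted in any comparison. DESeq2 called 5 members lower in cKO females and 4 in cKO males, beside 143 and 110 of all tested genes called lower. A single fit of all 10 CV groups called 4 members in females and 0 in males, beside 311 and 37 genes called lower. The main edgeR test called 4 and 15 genes lower, so the call in cKO rests on the model. Leaving out leptin replicate 2, whose *Plin1* was the highest of the female leptin libraries, gave an adjusted p of 0.0475 for *Plin1*.

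Difference of the leptin response between genotypes was tested as an interaction, and no member was called in either sex, where 0% of all genes were called. For *Plin1* in females it was -1.04 (SE 0.495, adjusted p = 0.817) and for *Plin2* 0.32 (SE 0.132, adjusted p = 0.784), with unadjusted p-values of 0.0498 and 0.0264. The interaction of leptin and sex in WT CV called no member and 0% of genes, with values from -0.37 for *Plin5* to 0.04 for *Cidec*. In the male genotype test 1 member and in the sex test 0 were at an unadjusted p below 0.05, beside 393 and 1130 of the 14873 tested genes. In the female genotype test 906 genes were at that level. DESeq2 called no member in any of these tests. With PBS alone, cKO and WT were not called different for any member in female CV, male CV or female LV (0 members and 0% of genes called in each), with log2 fold changes of -0.39 to 0.23 in CV. Here 3 members had an unadjusted p below 0.05 in female CV, beside 1476 of the 14873 tested genes. None did in male CV or LV, beside 783 and 388 genes, and DESeq2 called no member in the 3 comparisons.

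In LV, where fat is scarce, no member was called with leptin by edgeR, with 0% of all genes called in WT and in cKO. *Plin1* there lay at 0.420, 1.18, 0.520, 0.910 and 1.88 TPM with PBS and 0.370, 0.310, 0.140, 0.180 and 1.08 TPM with leptin in WT, that is 8 to 100 counts per library, with a log2 fold change of -1.27 (SE 0.560, adjusted p = 0.319). DESeq2 called 1 member lower in WT LV and 0 in cKO LV, beside 85 and 17 of all tested genes called lower. The member was *Plin4*, whose value in the edgeR test was -0.76 (SE 0.208, adjusted p = 0.152). *Plin2* in cKO LV had a log2 fold change of -0.44 (SE 0.0796, adjusted p = 0.364). At an unadjusted p below 0.05 were 2 members in WT LV and 1 in cKO LV, beside 2183 and 1331 of the 14873 tested genes.

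In iWAT of WT females leptin lowered 7 of 10 members, beside 15.1% of all tested genes called, 1171 lower and 1077 higher. The members' median log2 fold change was -0.88, against 0.07 over all genes. *Sncg* fell from 1377, 1279.9, 967, 1297 and 1280.4 TPM with PBS to 82.4, 108, 132, 108 and 82.0 TPM with leptin, at -3.49 (SE 0.176, adjusted p = 5.13e-06), the largest change of any member in any leptin comparison. *Plin4* fell from 324, 256, 326, 503 and 535 TPM to 84.3, 174, 143, 95.3 and 133 TPM, at -1.55 (SE 0.260, adjusted p = 0.00222). *Dbi* fell from 6012, 6279.9, 4754, 5509 and 5035 TPM to 1632, 3908, 1864, 1765 and 2527 TPM, at -1.15 (SE 0.229, adjusted p = 0.00535). None of these 3 genes had overlapping groups, although 1 leptin library held *Dbi* well above the other 4. The share of all tested genes without overlap was not counted.

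*Plin1* fell from 966, 814, 895, 1163 and 1185 TPM to 345, 591, 535, 409 and 557 TPM in iWAT, at -0.95 (SE 0.178, adjusted p = 0.00387). *Plin2*, *Plin5* and the droplet-forming *Fitm2* were called as well, though not in CV; the test of the difference between the tissues called *Plin2* alone of these. *Plin2* read 636, 964, 607, 514 and 403 TPM with PBS and 254, 303, 303, 334 and 356 TPM with leptin, at -0.92 (SE 0.219, adjusted p = 0.0121). *Plin5* read 17.1, 12.9, 13.8, 18.2 and 17.9 TPM and 5.64, 9.33, 9.52, 10.2 and 7.09 TPM, at -0.83 (SE 0.184, adjusted p = 0.00865), and *Fitm2* was at -0.76 (SE 0.184, adjusted p = 0.0129). In each of these 4 genes the leptin libraries all lay under the PBS libraries, and how many of all tested genes did so was not counted. The other members were not called: *Plin3* at -0.19 (SE 0.107, adjusted p = 0.202), *Plaat3* at -0.24 (SE 0.217, adjusted p = 0.444) and *Cidec* at 0.72 (SE 0.291, adjusted p = 0.0918).

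*Cidec* was the one member with a positive value in iWAT, at 768, 779, 922, 1531 and 1459.5 TPM with PBS and 944, 1824, 2406, 1437 and 1774 TPM with leptin, and its groups overlapped. Without leptin replicate 1 it was called higher (log2 fold change 0.85, adjusted p = 0.0438). Adipocyte markers were mixed in iWAT: 1 of 8 (*Cfd*) was higher and 3 (*Fabp4*, *Lpl* and *Cebpa*) were lower, and their sum was 71310.2 to 93086 TPM with PBS and 56496 to 100522 TPM with leptin. Of 5 erythroid markers 4 were lower, with sums of 2344 to 3197 TPM and 257 to 1328 TPM. Higher with leptin were 1 of 6 macrophage, 2 of 7 neuron and nerve and 1 of 6 neutrophil markers, and none of the muscle, bone or brown adipocyte markers was called. Their part in the result was not tested.

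**Figure D3:**
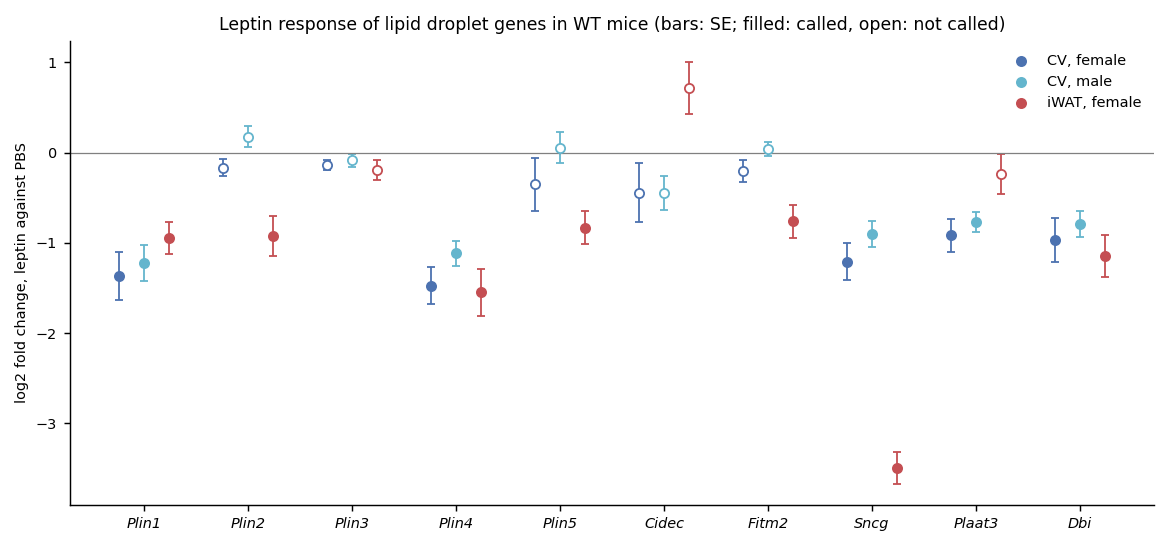
Log2 fold change of leptin against PBS for each member in WT CV of females and males and in WT female iWAT, with the SE as bars; filled points were called and open points were not. *Plin1*, *Plin4*, *Sncg* and *Dbi* are filled in all 3, and *Sncg* in iWAT stands far below the rest at -3.49.

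Whether CV and iWAT of the same females answered leptin differently was tested as an interaction. Of the 10 members 2 were called, *Sncg* and *Plin2*, beside 11.3% of all genes. For *Sncg* the CV response was less negative than that in iWAT by 2.32 log2 units (SE 0.281, adjusted p = 3.66e-05). For *Plin2* it was less negative by 0.79 (SE 0.250, adjusted p = 0.0387), and this call was lost without CV PBS replicate 1, 3, 4 or 5, CV leptin replicate 3 or 4, iWAT PBS replicate 1 or 2 or iWAT leptin replicate 1, with adjusted p-values of 0.0526 to 0.0692. *Cidec*, at -1.12 (SE 0.474, adjusted p = 0.119), *Plaat3*, at -0.65 (SE 0.305, adjusted p = 0.163), and *Fitm2*, at 0.59 (SE 0.234, adjusted p = 0.0938), were not called, and neither were *Plin5* at 0.52 (SE 0.350, adjusted p = 0.339), *Plin1* at -0.38 (SE 0.347, adjusted p = 0.49), *Plin4* at 0.11 (SE 0.347, adjusted p = 0.871) and *Dbi* at 0.21 (SE 0.363, adjusted p = 0.741). *Plaat3* was called without iWAT leptin replicate 1 and *Fitm2* without iWAT leptin replicate 3, with adjusted p-values of 0.0491 and 0.0234. With leptin, *Sncg* in iWAT, at 82.0 to 132 TPM, overlapped the range of CV with PBS, 98.5 to 179.7 TPM.

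The ratio of *Plin2* to *Plin1* TPM is given for each library as a description. A permutation test was run on it, but its p-values are left out. They would be no fair test, since the pair was taken up because *Plin1* fell in CV and *Plin2* was not called there. In WT female CV the ratio was 0.437 ± 0.134 (SD, n = 5, range 0.347 to 0.668) with PBS and 1.04 ± 0.339 (SD, n = 5, range 0.550 to 1.39) with leptin. In WT males it was 0.662 ± 0.186 (SD, n = 5, range 0.485 to 0.870) and 1.75 ± 0.602 (SD, n = 8, range 1.27 to 2.82). Every male leptin library lay above every PBS library, and in females 1 leptin library lay inside the PBS range. *Plin1* exceeded *Plin2* in all 10 WT CV libraries with PBS, and the reverse held in all 8 male leptin libraries and 2 of the 5 female ones.

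In cKO CV the ratio was 0.435 ± 0.123 (SD, n = 4, range 0.305 to 0.541) and 3.11 ± 1.77 (SD, n = 4, range 1.40 to 5.08) in females. In cKO males it was 0.633 ± 0.136 (SD, n = 5, range 0.456 to 0.801) and 1.15 ± 0.229 (SD, n = 4, range 0.914 to 1.46), and in both sexes the groups did not overlap. In iWAT both genes fell and the ratio was 0.661 ± 0.326 (SD, n = 5, range 0.341 to 1.18) with PBS and 0.654 ± 0.123 (SD, n = 5, range 0.513 to 0.817) with leptin, with all leptin libraries inside the PBS range. LV gave ratios of 22.1 to 713 on few *Plin1* counts.

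**Figure D4:**
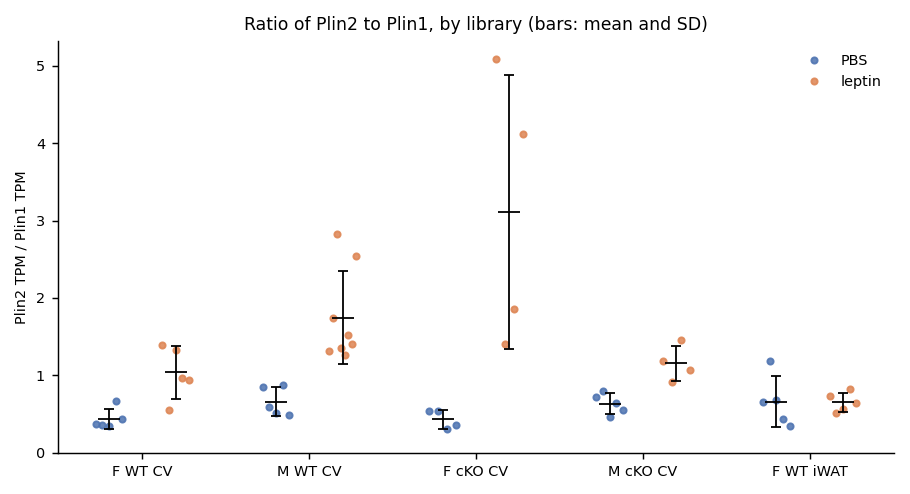
Ratio of *Plin2* to *Plin1* TPM in each library of CV (by sex and genotype) and iWAT, PBS in blue and leptin in orange, with the mean and SD. Ratios with PBS in CV stay between 0.305 and 0.870, and those with leptin in CV run from 0.550 to 5.08.

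Insulin was given to WT males only. The mice with insulin were numbered in the 300s and 400s, which held only such mice, so insulin and the series cannot be told apart. The paper gives a higher age range for the males of its insulin experiment than the series description does. Whether age differed between these groups was not tested. The comparisons with insulin share the PBS and leptin groups. With leptin and insulin, none of the 10 members was called against leptin alone by edgeR or DESeq2, beside 0.363% of all genes by edgeR. An unadjusted p below 0.05 was found for 5 members, beside 2475 of the 14873 tested genes. *Plin4* was at 0.44 (SE 0.133, adjusted p = 0.106), *Plin1* at 0.42 (SE 0.215, adjusted p = 0.335), *Sncg* at 0.40 (SE 0.146, adjusted p = 0.177), *Plaat3* at 0.29 (SE 0.110, adjusted p = 0.189) and *Dbi* at 0.29 (SE 0.126, adjusted p = 0.249). Set against the fall with leptin in the same fit, which uses the same leptin libraries, these values came to 34.0% for *Plin1*, 39.3% for *Plin4*, 43.7% for *Sncg*, 37.6% for *Plaat3* and 36.6% for *Dbi*. They are loose: with 1 library left out the difference from leptin alone ran from 0.20 to 0.55 for *Plin1*, 0.28 to 0.47 for *Sncg* and 0.21 to 0.36 for *Plaat3* (0.39 to 0.52 for *Plin4*, 0.23 to 0.35 for *Dbi*). *Plin2* was at -0.39 (SE 0.156, adjusted p = 0.211), and was called without leptin with insulin replicate 6 (log2 fold change -0.58, adjusted p = 0.0376).

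Against PBS, the mice with leptin and insulin had 1 of 10 members called lower, *Plin4*. Of all genes 1.1% were called, 105 lower and 59 higher. *Plin4* read 117, 133, 107, 79.6 and 134 TPM with PBS and 47.3 to 90.7 TPM with a median of 79.2 over the 6 libraries with leptin and insulin, at -0.68 (SE 0.150, adjusted p = 0.0222), and the groups overlapped. This call was lost without PBS replicate 2 or 5 or leptin with insulin replicate 5 (adjusted p of 0.0675, 0.0565 and 0.0527), and on log2(TPM + 1) or in the fit of all CV groups. *Plaat3* was at -0.48 (SE 0.123, adjusted p = 0.0436), just under the fold threshold, *Plin1* at -0.81 (SE 0.241, adjusted p = 0.0806), *Dbi* at -0.50 (SE 0.141, adjusted p = 0.0644) and *Sncg* at -0.51 (SE 0.161, adjusted p = 0.103). Leaving out leptin with insulin replicate 3 gave calls for *Plin1*, *Plaat3* and *Dbi* (log2 fold changes of -1.03, -0.55 and -0.56, adjusted p of 0.0212, 0.0207 and 0.0462). Without PBS replicate 4, *Sncg*, *Plaat3* and *Dbi* were called (-0.64, -0.54 and -0.62), and without leptin with insulin replicate 4 *Sncg* was (-0.63, adjusted p = 0.0324).

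Against PBS with insulin, again 1 of 10 members was called lower with leptin and insulin, *Plin4* at -0.65 (SE 0.150, adjusted p = 0.0373). Of all genes 0.558% were called, 62 lower and 21 higher. Leaving out 1 library ended the *Plin4* call for PBS with insulin replicates 2, 3, 4 and 5 and leptin with insulin replicates 1, 4, 5 and 6, with adjusted p-values of 0.0528 to 0.107. Without leptin with insulin replicate 3, *Plin1* and *Plaat3* were called as well (-1.10 and -0.56, adjusted p of 0.0135 and 0.0189). With insulin alone no member was called against PBS by edgeR or DESeq2 (0% of all genes by edgeR), with log2 fold changes of -0.20 to 0.21. At an unadjusted p below 0.05 were 0 members, beside 976 of the 14873 tested genes. By either tool the interaction of leptin and insulin called no member (0% of genes by edgeR). In it 3 members, among them *Plin4*, had an unadjusted p below 0.05, beside 1385 genes.

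**Figure D5:**
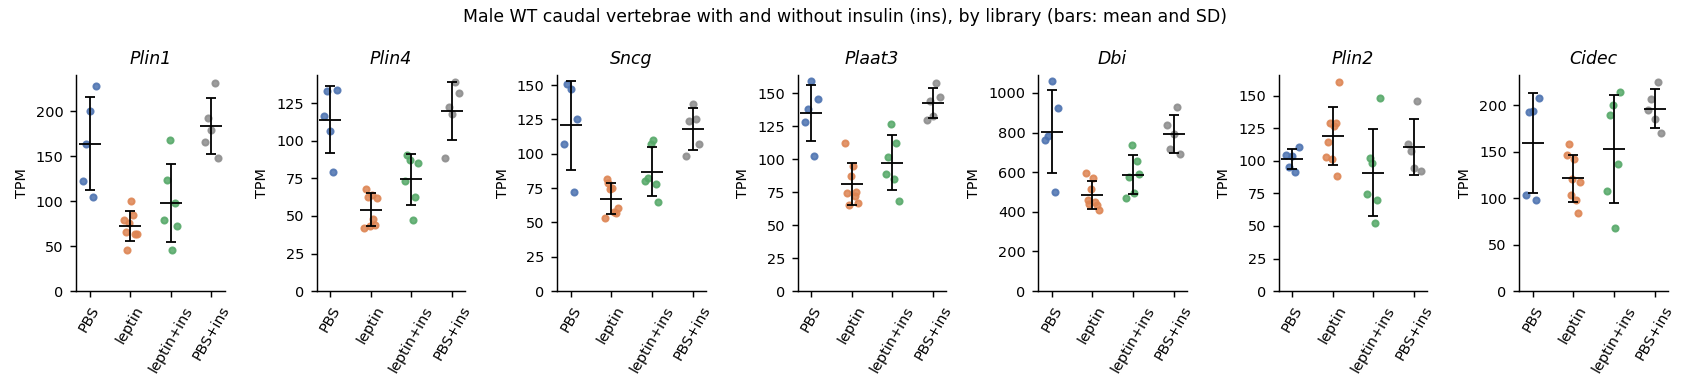
TPM in male WT CV libraries with PBS (n = 5), leptin (n = 8), leptin with insulin (n = 6) and PBS with insulin (n = 5), with the mean and SD, for the 5 members that fell with leptin and for *Plin2* and *Cidec*. Libraries with leptin and insulin spread over both the leptin and the PBS ranges for *Plin1*, at 46.2 to 168.1 TPM.

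Levels of 1 member were apart in the sexes in CV of both genotypes with PBS. *Plin3*, the ubiquitous coat, was at 57.7, 54.4, 58.8, 57.8 and 61.8 TPM in WT female CV and 39.3, 45.8, 39.3, 42.4 and 36.7 TPM in WT male CV with PBS, without overlap. In cKO the levels were 58.2 to 65.4 TPM in females and 38.4 to 41.7 TPM in males. The sexes were not compared by a test, and the other members of the 10 overlapped between the sexes in WT CV with PBS. How many of all genes were apart in the sexes was not counted.

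Across the 51 CV libraries, members varied together to unequal degrees, given here as Pearson's r on log2(TPM + 1) and as description, since libraries of the same group share their treatment. *Plaat3* and *Dbi* were closest, at r = 0.93, and stayed at 0.76 after each library was set against its group mean. *Plin1* with *Plin4* gave 0.84, and 0.56 against group means. *Plin1* with *Sncg* gave 0.79 and then 0.34. For *Plin1* with *Plin2* the value was 0.14, and with *Plin3* 0.08. *Cidec* and *Plin4*, of which only *Plin4* was called with leptin, gave 0.76 and 0.72 against group means.

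Of 10735 other genes at a mean of 5 TPM or more in CV, the 3 most alike to *Plin1* over the 51 libraries were A530016L24Rik with r = 0.97, *Gpd1* with r = 0.95 and *Lipe* with r = 0.95, of which *Gpd1* makes glycerol phosphate and *Lipe* is hormone-sensitive lipase. *Lipe* was also among those of *Plin4*, which were *Lipe* with r = 0.90, Trarg1 with r = 0.89 and Glb1l2 with r = 0.89, and of *Cidec*, which were *Cfd* with r = 0.86, Car5b with r = 0.85 and *Lipe* with r = 0.84. For *Sncg* they were Glb1l2 with r = 0.88, Nnat with r = 0.87 and Lep with r = 0.87, the last of which encodes leptin. For *Plaat3* they were Tmem45b with r = 0.90, Cib2 with r = 0.90 and Glb1l2 with r = 0.90, and for *Dbi* Cib2 with r = 0.91, Tmem45b with r = 0.88 and Mgst3 with r = 0.88. *Plin3* was closest to *Eif2s3x* with r = 0.90, *Kdm6a* with r = 0.90 and Triobp with r = 0.90, and *Eif2s3x* and *Kdm6a* are X-linked genes known to escape X inactivation. The genes most alike to *Plin2* were Mrap with r = 0.71, Rnf125 with r = 0.61 and Acer2 with r = 0.59, those of *Plin5* Cyp2e1 with r = 0.61, Pmm1 with r = 0.56 and Thrsp with r = 0.53 and those of *Fitm2* Aldh1l1 with r = 0.82, Rxra with r = 0.78 and Tns1 with r = 0.75, all lower values than the first of *Plin1*.

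Of a list of 38 other genes of droplet assembly, droplet lipases and droplet traffic, 35 were tested. In WT CV with leptin, 8 of them were lower and 1 higher in females, where 5.04% of all genes were called, and 6 lower and 2 higher in males, where 1.75% were. Their median log2 fold changes were -0.11 and -0.02. Called in the same direction in both sexes were 6. All 6 are on the study's own list of genes changed by leptin in these libraries, so their calls are no independent evidence. *Mgll*, monoacylglycerol lipase, was at -1.64 (adjusted p = 0.000235) in females and -1.15 (adjusted p = 9.95e-05) in males. *G0s2*, an inhibitor of ATGL, was at -1.49 (adjusted p = 0.0465) in females and -1.92 (adjusted p = 0.00109) in males. *Dgat2*, which makes triglyceride, was at -1.33 (adjusted p = 0.00237) in females and -1.11 (adjusted p = 0.000804) in males, and *Lipe* at -0.98 (adjusted p = 0.02) in females and -0.88 (adjusted p = 0.0053) in males. *Mettl7b* was at -1.70 (adjusted p = 0.00561) in females and -1.22 (adjusted p = 0.00533) in males, and the esterase *Ces1f* was the one that rose, at 1.38 (adjusted p = 0.00561) in females and 1.04 (adjusted p = 0.0229) in males. In iWAT 10 of the 35 were lower and 1 higher, beside 15.1% of all genes called.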

How the data were processed

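The samples were whole caudal vertebrae, lumbar vertebrae and inguinal fat, each library from 1 mouse, so p-values measure the spread between mice. The authors deposited estimated counts and TPM per gene, made from paired-end reads of 100 bases from oligo dT libraries on the BGI DNBSEQ platform. Their reads were filtered with SOAPnuke and aligned with HISAT and Bowtie2 to GRCm38.p6; the submitters' processing notes also list GRCm39. The counting tool and strand setting are not given in the sources used here. Of the deposited counts, 51 values in 6 genes were not whole, and all were rounded. Groups were taken from the labels. The 35630 entries without a numeric gene ID held only 0.

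The filter kept genes averaging 0.4 TPM or more across the 79 libraries, which were tested with edgeR 4.0.16 (TMM scaling, quasi-likelihood test, R 4.3.3), with Benjamini-Hochberg adjustment over 14873 genes; calls needed an adjusted p under 0.05 and a log2 fold change of 0.5 or more in size. SE is the standard error of that fold change. Alternatives used DESeq2 1.42.0, limma 3.58.1 on log2(TPM + 1) and log2(TPM + 0.1), RLE size factors, no filter, a replicate block, the series of mouse numbers, a joint fit of the 10 CV groups and each library left out. On simulated counts, edgeR recovered 197 of 200 genes changed by 1.5 log2 units in the female WT CV comparison. In the male one it recovered 198 of 200, among 14873 genes each, and 5.29% and 5.71% of calls were false. Changed genes were drawn above a floor on low counts, and every member changed by less in WT CV, at most by -1.47. Recovery of smaller changes, and in the other comparisons, was not measured. No library pair agreed within sampling noise. Replicate numbers paired the tissues of a female by mouse, a pairing that the main tissue tests did not use. Other groups shared only the number. Same-numbered pairs of cKO and WT in female LV with PBS correlated above 0.1 in 4 of 4 (no member called with or without the block). For leptin and PBS in WT females this held in 4 of 5 pairs in iWAT and 3 of 5 in CV and in LV. Between tissues it held in 3 of 5 for CV and LV and 1 of 5 for CV and iWAT.

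All 10 members are described, and of the other droplet genes those called in the same direction in WT CV of both sexes were named. The members and lists were chosen with earlier results of these data known.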

Additional observations from a re-analysis of the deposited data

Results flagged for a closer look

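In groups of 4 to 8 libraries, 160 sets of values of a member in a group were examined for a library far from the rest. Dixon's criterion at 95%, which marks about 1 set in 20 by chance, was used, and 6 were marked. In WT LV with leptin, replicate 5 held *Plin1* at 1.08 TPM and the other 4 libraries at 0.14 to 0.37 TPM. In WT LV with PBS, replicate 5 held *Cidec* at 5.45 TPM and the others at 0.89 to 2.14 TPM. In WT female CV with PBS, replicate 2 held *Plin2* at 118 TPM and the others at 90.6 to 97.6 TPM. Female cKO CV gave 2 such values, *Plin5* at 0.64 TPM in leptin replicate 2 against 1.04 to 1.09 TPM, and *Dbi* at 567 TPM in PBS replicate 2 against 673 to 687.7 TPM. In iWAT with PBS, replicate 3 held *Sncg* at 967 TPM and the others at 1280 to 1377 TPM.

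The leptin response differed between CV and iWAT of WT females, by the interaction term in edgeR with Benjamini-Hochberg adjustment, for *Sncg* by 2.32 log2 units (adjusted p = 3.66e-05) and for *Plin2* by 0.79 (adjusted p = 0.0387), both less negative in CV. The *Plin2* call was lost in 9 of the 20 fits that left out 1 library, with adjusted p-values of 0.0526 to 0.0692. In all 5 CV and all 5 iWAT leptin libraries *Sncg* lay under every PBS library of the same tissue.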

How the results depend on the processing

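Over the alternatives other than leaving out a library, 652 member values kept their direction and their side of the threshold, 21 passed it only under the alternative, 9 no longer passed and 9 changed sign. Numbers of members called moved by more than 1.5 times as follows. DESeq2 called 5 in female cKO CV and 4 in male cKO CV (0 by edgeR in each), 1 in WT LV (0), 2 for leptin with insulin against PBS (1) and 2 against PBS with insulin (1). Over all genes DESeq2 called 143 lower in female cKO CV (4 by edgeR), 110 in male cKO CV (15) and 85 in WT LV (0). For leptin with insulin it called 149 genes lower against PBS (105) and 156 against PBS with insulin (62). The joint fit of all CV groups gave 4 members in female cKO CV, beside 311 genes lower. It gave 0 members for leptin with insulin against PBS and against PBS with insulin, beside 53 and 39 genes lower. For leptin with insulin against PBS the number was 2 with no minimum fold, beside 284 of all genes. It was 0 with limma on log2(TPM + 1) or log2(TPM + 0.1), beside 47 and 55 genes lower. With the latter it was 0 against PBS with insulin, beside 75 genes lower. With a replicate block the male WT CV comparison called 1 member in place of 5, beside 32 of all genes lower in place of 136. There 3 of the 8 leptin libraries have no partner, and only 1 of 5 pairs correlated above 0.1, so the number does not pair the mice. The block also turned *Fitm2* in male WT CV to -0.0100, and in male cKO CV *Plin3* to 0.0135 and *Fitm2* to 0.0444; the series of mouse numbers turned *Plin3* there to 0.0259. Neither setting changed another call of a member. For CV against LV, *Plin3* was at -0.000472 with DESeq2, -0.000471 with RLE factors and -0.0172 with no filter, and *Plin2* was at 1.04 and 1.05 with limma, where the median of all genes moved by 0.87 and 1.08. The causes were not tested. Leaving out 1 library gave 0 to 1 members called in female cKO CV and for leptin with insulin against leptin, 0 to 4 against PBS, 0 to 3 against PBS with insulin and 1 to 3 in the tissue interaction. Calls over all genes are not given for these fits. With 1 library left out the log2 change of the *Plin2* to *Plin1* ratio ran from 2.39 to 3.00 in female cKO CV, -0.11 to 0.34 in iWAT and 1.07 to 1.79 in WT LV. Log2 fold changes that changed sign ran from -0.0488 to 0.14 (*Plin5*, male WT CV), -0.0701 to 0.0204 (*Plin3*) and -0.25 to 0.00309 (*Fitm2*) in female cKO CV, -0.13 to 0.0309 (*Fitm2*), -0.0772 to 0.0316 (*Plin3*) and -0.0250 to 0.42 (*Plin5*) in male cKO CV, -0.0340 to 0.0233 (*Plin3*, CV against LV), -0.25 to 0.0163 (*Cidec*, leptin with insulin against PBS), and -0.0263 to 0.25 (*Plin4*) and -0.0558 to 0.47 (*Dbi*) in the tissue interaction. Counts were lowest for *Plin5* in CV, at 12 to 73, and *Plin1* in WT LV, at 8 to 100; whether depth or the spread between mice limits these values was not tested.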
